A study of Danio rerio with 18 samples.

Results

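MiR430 injection at the 256-cell stage of zebrafish (Danio rerio) development was described here across all genes of 1 comparison. The 3 libraries of embryos that received MiR430 microRNA were set against the 3 libraries of untreated embryos of the same stage. Its members are the 16996 genes that carry a p-value in the authors' deposited table, out of 17135 genes listed, and 139 genes without a p are not described. Both groups were whole wild type embryos, dechorionated with Pronase and injected with s4UTP, a modified nucleotide that newly made RNA takes up. The MiR430 group received the microRNA together with s4UTP, and the group labelled as untreated received s4UTP alone. RNA carrying the nucleotide was biotinylated, enriched on beads and treated with iodoacetamide (enriched SLAM-seq), which selects for new RNA. No source used here says whether the deposited means and p-values rest on all reads or on reads with converted bases. No group received a control microRNA, so an effect of injected RNA as such and one of MiR430 cannot be told apart. The series holds 18 libraries in 6 groups and concerns the transcription bodies of the early embryo and CDK9, the kinase subunit of P-TEFb, which releases paused RNA polymerase II.

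The microRNA miR-430 is made in very many copies from a gene cluster on chromosome 4 as soon as the zebrafish genome is switched on. Its mature form base-pairs through a short seed with the 3′ untranslated regions of maternal messenger RNAs, and Argonaute proteins with their TNRC6 partners then block translation and recruit the CCR4-NOT complex that removes poly(A) tails. The cluster is also among the first and strongest transcribed loci of the embryo, where transcription gathers in a visible nuclear body.

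The deposited log2 fold changes of this comparison are shrunken nearly to 0. Of the 16996 genes, 16905 (99.5%) had an absolute log2 fold change below 0.01 in the authors' deposited table, and 20 exceeded 0.1. In the authors' deposited table the median absolute log2 fold change was 0.000266, against 0.0431 for the same injection in embryos of 1024 cells. The direction and strength of each difference are therefore given as a signed z statistic, the normal quantile of the deposited p with the sign of the deposited log2 fold change. A positive z stands for a higher level in MiR430 embryos. Values of single libraries were not used here, so no level per library is given. Abundance is given as the authors' mean normalized count over libraries of all groups, which had a median of 9.95 over the members, and mitochondrially encoded genes held 96.8% of its sum. Of 8 maternal oocyte markers all were listed, with means of 1.54 to 123, while 14 of 19 markers of later tissues were not listed and the other 5 had means of 0.412 to 4.06.

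Few genes differed between MiR430 and untreated embryos, and those were split between rises and falls. A gene is said to have risen or fallen where its deposited adjusted p is under 0.05. By that rule 4 genes rose, or 0.0323% of the 12373 genes with an adjusted p, and 3 fell, or 0.0242%. At an unadjusted p under 0.05, 491 genes passed (2.89% of 16996), of which 248 were higher (1.46%) and 243 were lower (1.43%). Uniform p-values would give 5%, so fewer genes passed than that. Of the 3703 genes with a mean normalized count of up to 2, 0 were higher and 0 lower at that p. They are part of the 1.46% and 1.43% that stand beside the lists below, which keeps both shares low. The z statistics of all 16996 genes spread with an SD of 0.83, less than the SD of 1.07 at the 1024-cell stage. Both SDs include genes with a z of 0, which numbered 2490 at the 256-cell and 943 at the 1024-cell stage. Of 14506 genes with a sign, 7108 (49.0%) had a positive z and 7398 a negative one, and the remaining 2490 genes were listed with a log2 fold change of exactly 0 and a p of exactly 1. The p-values are those of the authors' fit. The deposited mean count is the same in all 4 comparisons, so the spread behind each p may have been estimated over libraries of all groups. No source used here says whether replicates came from separate clutches.

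The 4 genes that rose were CU182823.1, znf1092, akap12b and fgf20a. The gene akap12b (chromosome 20, 26407758 to 26467454 in GRCz11, minus strand, 4 exon blocks), whose product is a scaffold for protein kinase A, had a z of 6.77, and the authors' deposited table gave it an adjusted p of 3.1e-08. The zinc finger gene znf1092 (chromosome 4, 38410690 to 38421217) had a z of 6.78 and the same adjusted p in the authors' deposited table as akap12b. In the authors' deposited table the fibroblast growth factor gene fgf20a (chromosome 1, 16393077 to 16394814) had a log2 fold change of 3.22 with a standard error (SE) of 2.66 and an adjusted p of 0.0093. The gene CU182823.1, on an unplaced scaffold, had a z of 7.12 and an adjusted p of 4.6e-09 in the authors' deposited table. It carries a clone name, so it was named after its values were seen. In whole embryos, a change in the number of cells that make a transcript and one in its amount per cell cannot be told apart.

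The 3 genes that fell were esyt1a, tsc22d3 and brf2. The extended synaptotagmin gene esyt1a (chromosome 23, 25308018 to 25340070), which encodes a tether between the endoplasmic reticulum and the plasma membrane, had a z of -7.71, and its adjusted p in the authors' deposited table was 1.6e-10. The leucine zipper gene tsc22d3 (chromosome 14, 27998756 to 28001986), known in mammals as a glucocorticoid-induced gene, had a z of -7.32 and an adjusted p of 1.6e-09 in the authors' deposited table. In the authors' deposited table the gene brf2 (chromosome 10, 41279007 to 41302909), which encodes a TFIIIB subunit used by RNA polymerase III, had a log2 fold change of -1.85 with an SE of 2.19 and an adjusted p of 0.015. These 3 genes had mean normalized counts of 28.8, 51.3 and 23.6, below the 121 to 372 of the 4 genes that rose.

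For 5 of these 7 genes the deposited fold has no size. The log2 fold changes of CU182823.1, znf1092 and akap12b were 17.3, 17.5 and 17.1, and those of esyt1a and tsc22d3 were -16.8 and -15.9 in the authors' deposited table. If all reads of such a gene lay in the higher group, its lower group would hold 0.00461 (esyt1a) to 0.0489 (akap12b) reads over its 3 libraries, under 1 read in each case. The z and adjusted p of these 5 genes come from the same fit as the folds, so they carry the same limit. How many libraries hold the reads cannot be seen, as no value per library was used. The authors' own call column, which needs an absolute log2 fold change above 2 and an adjusted p under 0.01, marked 4 genes up and 2 down and left out brf2. When the adjustment was limited to genes whose mean count reached 50, 6 genes rose, 2 of them copies of dre-mir-430a-2, and 1, tsc22d3, fell.

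The 7 genes did not behave alike elsewhere. The 1024-cell comparison shares no library with this one. There the authors' deposited table gave adjusted p of 0.0431 for esyt1a, with a z of 3.53, and of 0.244 for tsc22d3, with a z of 2.48, both opposite in sign to the 256-cell stage. There brf2 kept its negative sign with a z of -2.61, and fgf20a its positive sign with 2.38. The genes akap12b, znf1092 and CU182823.1 had z of 1.51, 1.13 and 1.34 there, none of which passed the adjusted threshold. The difference between stages was not tested.

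The other named genes among the 10 with the smallest p per direction did not pass the adjusted threshold. On the higher side came the homeobox gene irx7 (z of 3.68, and 0.218 as adjusted p by the authors' deposited table), the phospholipase gene plce1 (z of 3.56) and the immediate early gene ier5 (z of 3.41). The forkhead gene foxj2 (z of 3.16), the actin-binding protein gene marcksl1b (3.05), grhl3 (3.04) and the guanine nucleotide exchange factor gene rapgef1b (3.04) followed. On the lower side came errfi1a, whose product inhibits EGF receptors in mammals, with a z of -3.76 and, as the authors' deposited table gives it, an adjusted p of 0.179. The syntaxin gene stx16 (z of -3.40), the calmodulin gene calm3b (-3.27) and commd5 (-3.24) followed. Then came C9H2orf76 (-3.13), hsd3b2 (-3.09), whose product makes steroid hormones, and the histone gene hist1h2a11 (-3.07).

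The mir-430 genes themselves leaned to the higher side. The annotation holds 54 copies with 11 names on the plus strand of chromosome 4, from 28693371 to 28709534 in GRCz11, a span of 16164 bases with no other listed gene. Of these, 19 (35.2%) were higher at an unadjusted p under 0.05 and 0 lower, beside 1.46% and 1.43% of all genes. Of the 32 copies with a mean of at least 50, 17 (53.1%) were higher and 0 lower, beside 4.35% and 1.38% of all genes of that mean. None passed the adjusted threshold over all genes with an adjusted p. A positive z was found in 46 of the 49 copies with a sign, a negative one in 3, and 5 copies had a p of 1. The median z of signed copies was 1.59, against -0.022 for all signed genes.

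Single copies differed widely. The highest z, 4.11 and 4.03, belonged to 2 copies named dre-mir-430a-2, for which the authors' deposited table gave an adjusted p of 0.0618 and 0.0702. The lowest z was -1.1, also in a mir-430a copy. Copies are 73 to 82 bases long and near identical, so a read may be assigned to any of several, and copies are not independent measurements.

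**Figure D1:**
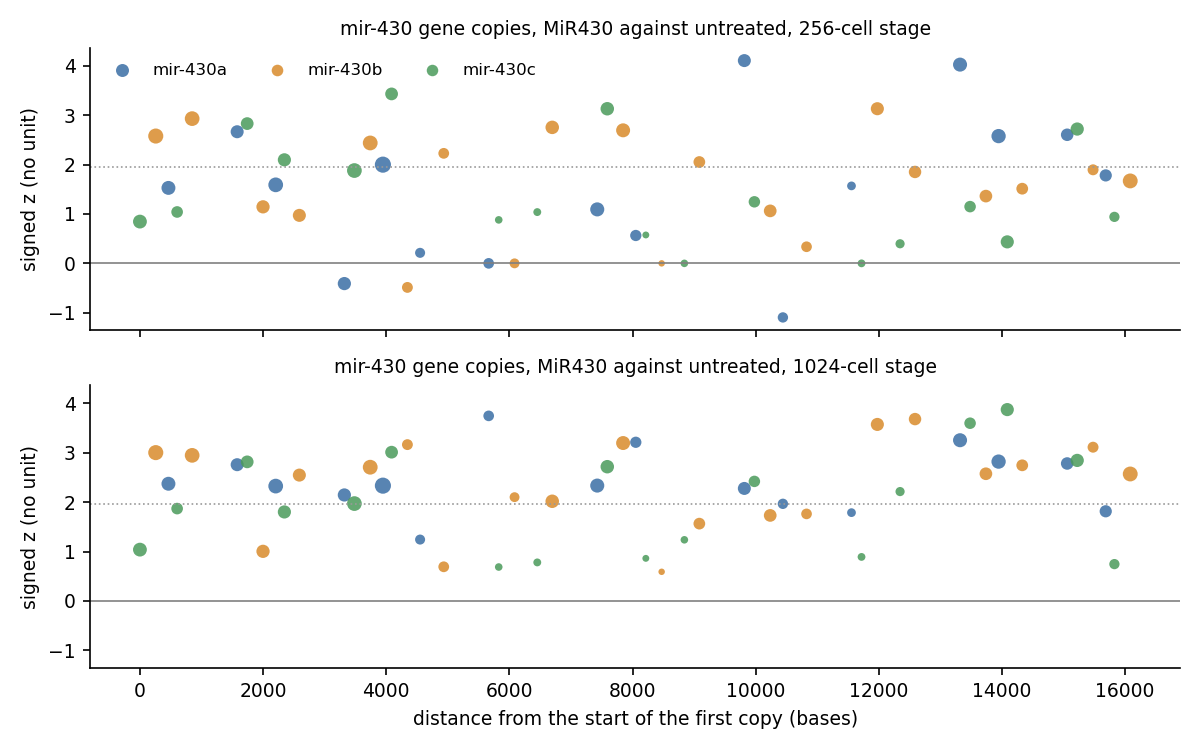
Signed z of the 54 mir-430 gene copies, by distance from the start of the first copy in bases, at the 256-cell stage (top) and the 1024-cell stage (bottom), each MiR430 against untreated embryos. Colour gives the family, point size the mean normalized count on a log scale, and the dotted line an unadjusted p of 0.05. At the 256-cell stage 46 copies lie above 0, 3 below and 5 on it, and at the 1024-cell stage all 54 lie above 0.

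The 3 families of the cluster, which share their seed region and differ in the rest of the mature strand, gave overlapping values. The median z of signed copies was 1.59 for mir-430a (15 signed copies), 1.87 for mir-430b (18) and 1.1 for mir-430c (16). The shares higher at an unadjusted p under 0.05 were 6 of 16, 8 of 20 and 5 of 18 copies. The mean count includes the injected groups, so a split by it depends in part on the change itself and is given as a description. Of the 27 copies above the median mean count of 120, 16 were higher at an unadjusted p under 0.05 and the median z was 2.44. Of the 27 other copies 3 were higher at that p, with a median z of 1.1. Reads of the injected microRNA and of the embryo's own transcripts are not separated in the deposited values, and the part of injected molecules in these statistics was not tested. The lean was not particular to MiR430 embryos. In embryos of 1024 cells injected with cdk9 mRNA, in libraries not part of this comparison, all 54 copies had a positive z. Of these, 41 were higher at an unadjusted p under 0.05, beside 9.83% of all genes.

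At the 1024-cell stage all 54 copies had a positive z, with a median of 2.34. There 36 were higher at an unadjusted p under 0.05, where 6.01% of all genes were, and 5 rose by the adjusted threshold, where 1.01% of genes did. The difference in response between stages was not tested.

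Documented targets of miR-430 lay mostly on the higher side. Of 7 listed targets 3 were higher and 0 lower at an unadjusted p under 0.05, beside 1.46% and 1.43% of all genes and 4.35% and 1.38% of genes with a mean of at least 50, which these 3 had, and none passed the adjusted threshold. The authors' deposited table gave an unadjusted p of 0.0176 for the Nodal ligand gene ndr1 (z of 2.37), 0.0185 for its antagonist gene lft2 (2.36) and 0.0467 for the chemokine scavenger receptor gene ackr3b (1.99). The second antagonist gene lft1 had a z of 1.76. The genes ndr1, lft1 and lft2 are also members of the Nodal and mesendoderm list below, and ndr1 and lft1 of the dorsal organizer list. The germ plasm genes tdrd7a and nanos3, whose maternal RNA is cleared by miR-430 in somatic cells, had z of -0.86 and 0.26, and the chemokine gene cxcl12a had a p of 1. The enrichment selects for new RNA, so a loss of preloaded maternal RNA may not show in these values. Clearance of maternal RNA was not tested.

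Genes that carry out microRNA repression showed no lean. Of 14 microRNA pathway genes 0 were higher and 0 lower at an unadjusted p under 0.05, and signed members had a median z of 0.15 and a range of -0.58 to 1.57. The largest statistics belonged to tnrc6c1 (z of 1.57) and tnrc6b (1.5), which encode partners of Argonaute, and to dicer1 (1.53), whose product cuts microRNA precursors. The nuclear processing gene drosha had a z of 0.60 and ago2 one of -0.58. Among 32 deadenylation and decapping genes 1 was lower at that p (lowest z of -2.42) and 0 were higher, with a median z of 0.028. Of all genes 1.46% were higher and 1.43% lower, so counts in lists of 14 and 32 genes could show little.

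The early zygotic list, mostly transcription factors that are among the first genes switched on, also leaned to the higher side among its members with a sign. Of 35 measured members 11 (31.4%) were higher at an unadjusted p under 0.05 and 1 was lower, beside 1.46% and 1.43% of all genes, and znf1092 was the only one that rose. All 11 had a mean normalized count above 100. The share higher was 4.35% among all genes with a mean of at least 50, 7.52% from 100 to 500 and 14.6% above 500. Like the other lists, this one was chosen with earlier results of these data known, so its share is a description. Among 23 members with a sign 20 had a positive z, with a median of 1.88. Beside irx7 and the epidermal regulator gene grhl3 (z of 3.04, p = 0.00237 in the authors' deposited table), the Hairy-related gene her3 had a z of 2.97 and the forkhead gene foxd5 one of 2.91. The ventral repressor gene vent (2.74), the Krüppel-like factor genes klf2b (2.56) and klf17 (2.44) and the dorsal genes dharma (2.29) and gsc (2.22) followed, with nnr at 2.03. The genes mxtx2 (1.88), sox3 (1.87), sox19a (1.73), vox (1.66) and klf2a (1.57) were higher without reaching that p.

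Of the 35 members 3 had a negative z and 12 gave no sign. The apelin receptor gene aplnrb, which guides mesendoderm cells, had a z of -2.53 here and 2.26 at the 1024-cell stage. The segmentation clock genes her1 and her7 had z of -1.39 and -0.43 at the 256-cell stage and 1.86 and 1.79 later. The other 12 members, among them klf4, ved, tbxta, tbx16, sox32 and foxd3, had a p of 1 at the 256-cell stage. Their mean normalized counts were 0.549 (cdx1b) to 48.7 (foxd3), lower than the 1089 of irx7, the 3213 of klf17 or the 1682 of vox.

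**Figure D2:**
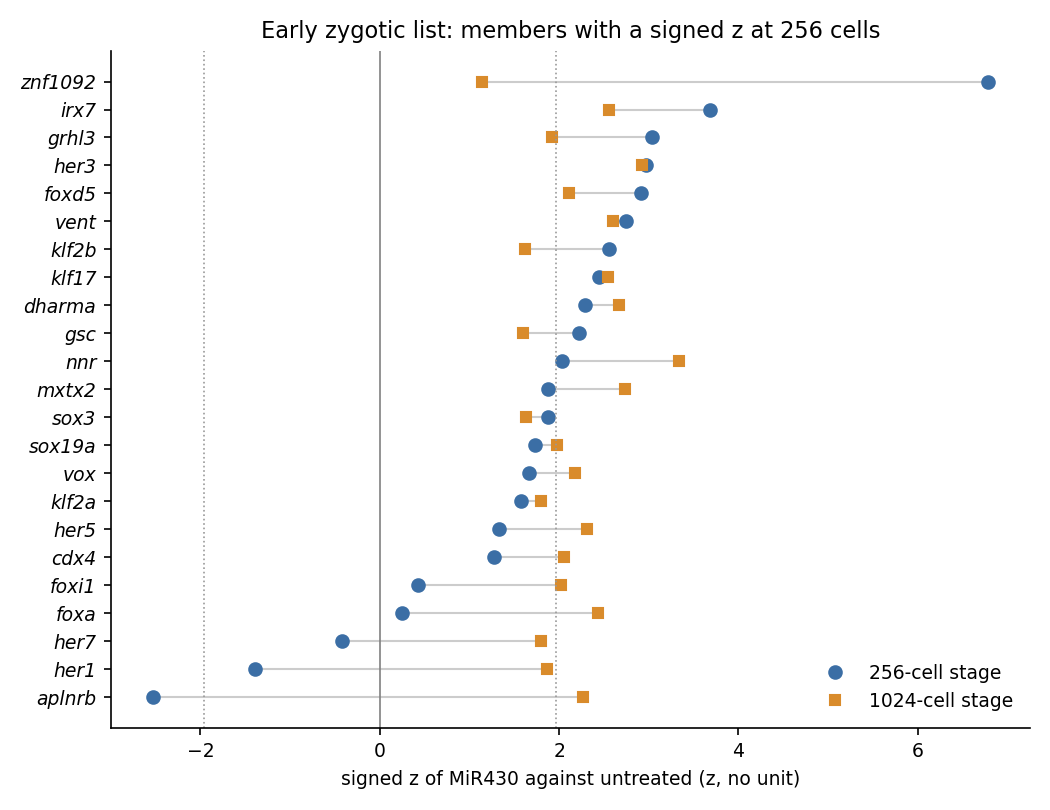
Signed z (x axis, no unit) of the 23 early zygotic genes with a sign at the 256-cell stage, MiR430 against untreated, with circles for the 256-cell and squares for the 1024-cell stage and dotted lines at an unadjusted p of 0.05. Of the circles 20 lie above 0, from foxa at 0.25 to znf1092 at 6.78, and aplnrb is lowest at -2.53.

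Patterning lists share members with the early zygotic list, with the list of miR-430 targets and with each other. Their counts of a few genes stand beside 1.46% higher and 1.43% lower of all genes, or 4.35% and 1.38% at a mean of at least 50. In the dorsal organizer list 3 of 21 members were higher at an unadjusted p under 0.05 and 0 lower, namely ndr1, dharma and gsc, and 10 of 13 signed members had a positive z with a median of 0.92. In the Nodal and mesendoderm list 3 of 23 were higher, namely ndr1, lft2 and the homeobox gene mixl1 (z of 2.22), and 1 was lower, aplnrb, with a median z of 0.37. The Nodal ligand gene ndr2 had a z of 1.83 and its coreceptor gene tdgf1 one of -1.41. In the Bmp and ventral list 2 of 23 were higher, vent and the GATA factor gene gata2a (z of 2.01), and 0 lower, with a median z of 0.38. The related gene gata3 had a z of 1.54. None of these patterning genes passed the adjusted threshold.

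Layer markers were thinly covered. Their counts stand beside 1.46% higher and 1.43% lower of all genes, or 4.35% and 1.38% at a mean of at least 50. The genes grhl3, klf17, mxtx1 and mxtx2 are also members of the early zygotic list. In the enveloping layer list, the outer epithelium of the embryo, 2 of 11 measured members were higher at an unadjusted p under 0.05 (grhl3 and klf17) and 0 lower, while krt8 had a z of 1.16 and the cadherin gene cdh1 one of -0.78. In the yolk syncytial layer list 0 of 7 were higher and 1 was lower, the fibronectin gene fn1a with a z of -2.80. The layer's regulator gene mxtx2 had a z of 1.88 and mxtx1 a p of 1.

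Maternal oocyte and germ plasm genes, whose RNA is loaded before fertilization, stayed near all other genes. Of 36 measured members 1 (2.78%) was higher at an unadjusted p under 0.05 and 0 lower, beside 1.46% and 1.43% of all genes. The median z was 0.24. The higher gene was pabpc1l, an oocyte poly(A)-binding protein gene, with a z of 2.52. As the enrichment selects for new RNA, a loss of RNA loaded before fertilization may not show in these values. The germ cell gene dazl was lower, but the authors' deposited table gave it an unadjusted p of 0.0504, and the Piwi genes piwil2 and piwil1 had z of -1.26 and 1.2. Among genome activators and chromatin regulators the bromodomain gene brd2a was the only one of 19 at that p, with a z of 2.74, and pou5f3 and nanog, which open chromatin for genome activation, had z of -0.39 and -0.072.

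**Figure D3:**
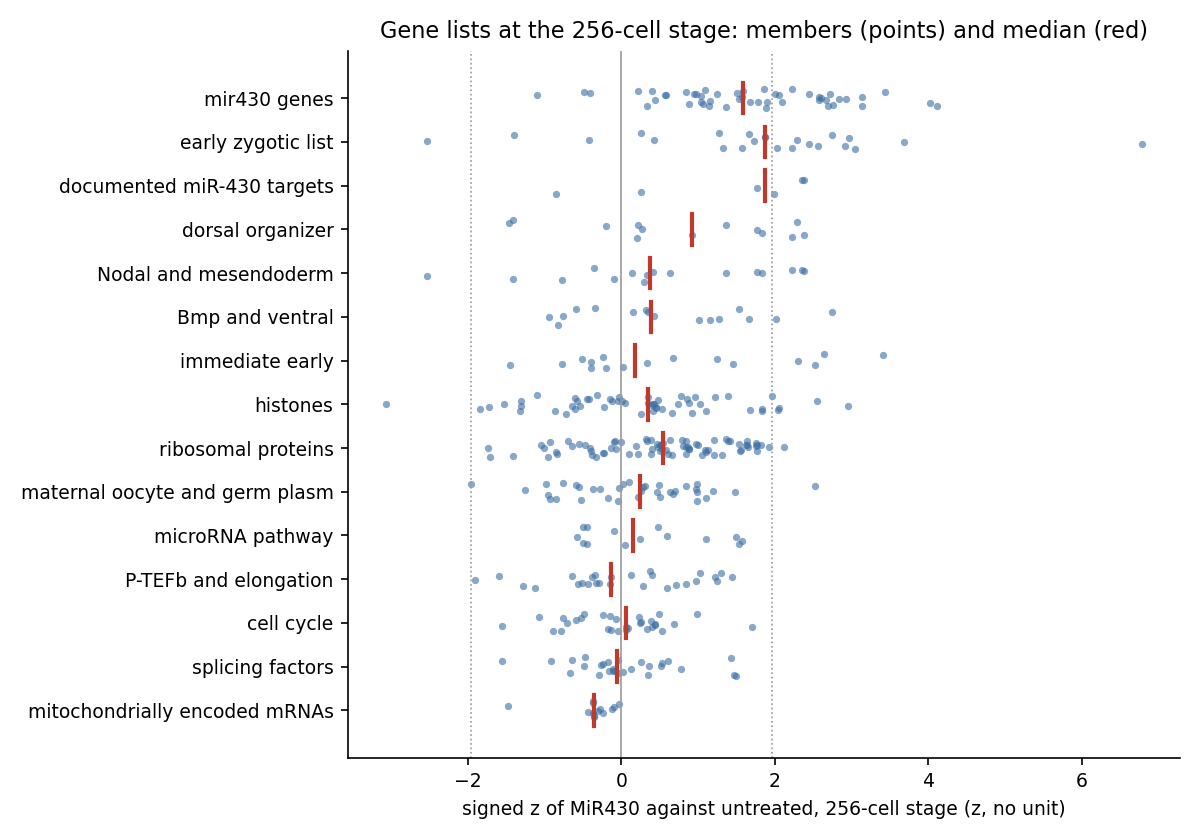
Signed z (x axis, no unit) of the members of 15 gene lists, MiR430 against untreated at the 256-cell stage. Each point is a gene with a sign, red bars are medians, and dotted lines mark an unadjusted p of 0.05. The medians of the mir-430, early zygotic and miR-430 target lists are 1.59, 1.88 and 1.87, and that of the mitochondrially encoded mRNAs is lowest at -0.35.

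Response genes gave a mixed picture. Their counts stand beside 1.46% higher and 1.43% lower of all genes, so a single gene in a list this short says little. Of 22 immediate early genes 4 (18.2%) were higher at an unadjusted p under 0.05 and 0 lower, and the median z was 0.18. All 4 had a mean of at least 50, where 4.35% of genes were higher. They were ier5, the antiproliferative gene btg1 (z of 2.64), the AP-1 gene fosab (2.52) and ier2a (2.3), while dusp1 had a z of 1.25 and klf6a one of -1.45. In the p53 response list 1 of 23 was higher (highest z of 2.35) and 0 lower, with a median of -0.046. The RNA sensing and interferon list, which would include responses to foreign RNA, had 0 of 13 tested members higher and 1 lower, the kinase gene eif2ak2 with a z of -2.38. A further 9 genes of that list were not found, among them ifih1, rigi and tlr3. Of the tested members 4 gave no sign, and their median mean count was 4.24, so the list could show little. The factor irf7 had a z of 1.75. Of 21 heat shock genes 0 were higher and 1 was lower at that p (lowest z of -2.19), with a median of 0.066.

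The P-TEFb and elongation list held 27 measured genes, with 0 higher and 0 lower at an unadjusted p under 0.05, beside 1.46% and 1.43% of all genes. Its median z was -0.14. The kinase gene cdk9 had a z of 1.45 and a p of 0.148 in the authors' deposited table, with a mean normalized count of 1202. Pausing factor genes lay on both sides, with nelfe at -1.91, nelfb at 1.29 and nelfa at 1.24, and larp7, whose product binds 7SK RNA, had -1.59. The gene rn7sk for 7SK RNA, which holds P-TEFb inactive, stood outside the fixed lists and was named after its values were seen. Its z was 2.57 here and 3.23 at the 1024-cell stage.

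Housekeeping groups differed among themselves. Of 56 histone genes 4 (7.14%) were higher and 1, hist1h2a11, was lower at an unadjusted p under 0.05, beside 1.46% and 1.43% of all genes. The median z was 0.35. Of the 29 with a mean of at least 50, 4 (13.8%) were higher and 0 lower, beside 4.35% and 1.38% of all genes of that mean. Copies of hist1h4l were among these 4. Copies named hist1h4l ranged up to 2.95, while other copies of the same name were negative, at -1.72 and -1.53. Those copies are near identical, so their reads may be split. Of 80 ribosomal protein genes 1 was higher and 0 lower at that p, but 53 of 77 signed members (68.8%, beside 49.0% of all genes) had a positive z and the median was 0.54. Cell cycle genes (0 higher and 0 lower of 33, median z of 0.055) and splicing factor genes (0 and 0 of 28, median z of -0.064) showed no lean. The 13 mitochondrially encoded mRNAs all had a negative z, from -1.47 to -0.031, with none at an unadjusted p under 0.05. Their median of -0.35 lay below that of all genes. All 13 come from the mitochondrial genome, so their shared sign may not stand for 13 independent measurements.

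Chromosome 4, which carries the mir-430 cluster, was nearer to the other chromosomes once the cluster was set aside. Without the mir-430 genes, 21 of its 1046 genes (2.01%) were higher at an unadjusted p under 0.05 and 14 (1.34%) lower, and 53.9% of signed genes had a positive z. On the other 24 nuclear chromosomes together 203 of 15681 genes (1.29%) were higher and 227 (1.45%) lower, with 48.6% positive. Among genes with a mean of at least 50, 9.28% of 97 on chromosome 4 without the mir-430 genes were higher and 4.12% lower, against 3.42% and 1.31% of 2219 elsewhere, so both shares were larger there. Zinc finger genes of chromosome 4 had 8 of 165 tested members higher and 2 lower at that p, beside 1.46% and 1.43% of all genes. Their median z was 0.20. Beside znf1092 the largest were znf1117 (z of 2.72), znf995 (2.71) and znf1141 (2.53). By start position, the share positive in windows of 10 Mb ranged from 45.5% (30 to 40 Mb) to 61.4% (60 to 70 Mb).

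Direction depended on abundance. Genes with a mean normalized count above 500 had 13 of 89 members (14.6%) higher at an unadjusted p under 0.05 and 0 lower, and genes from 100 to 500 had 57 of 758 (7.52%) higher and 9 (1.19%) lower. From 5 to 10 the order turned, with 33 of 2341 (1.41%) higher and 73 (3.12%) lower. The median mean count of the 248 higher genes was 33.8 and that of the 243 lower genes was 11.6. Copies of mir-430, which are not independent measurements, are part of these shares. Of the 104 higher genes with a mean of at least 50, 17 were mir-430 copies. The mean is taken over libraries of all groups, so it also holds the reads that make a gene high in an injected group. Among the 10 most abundant nuclear genes, 9 had a positive z. Of the 89 genes with a mean above 500, mitochondrially encoded ones included, 62.9% did. The 9 included dre-mir-430a-4 (mean of 5135, z of 2.00), klf17, the nuclear receptor coactivator gene pnrc2 (1.23) and hnrnpa0l (0.56), and nanog was the exception.

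Genes with few exons were more often higher than genes with many. Exon blocks were counted after merging overlapping exons of a gene, among genes with a mean of at least 50, of which 4.35% were higher and 1.38% lower at an unadjusted p under 0.05. Of 500 genes with up to 4 exon blocks 70 (14%) were higher and 6 (1.2%) lower. Of 1890 genes with more blocks 34 (1.80%) were higher and 27 (1.43%) lower. Leaving out mir-430 and histone genes, 11 of 124 single-block genes and 38 of 317 genes with 2 to 4 blocks were higher, beside 4 and 2 lower. Those single-block genes had a positive z in 43.8% of signed members, below the 52.0% of genes with more than 4 blocks. Genes spanning 1000 to 3000 bases had the largest share of the 6 span classes, with 23 of 111 (20.7%) higher and 1 lower.

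**Figure D4:**
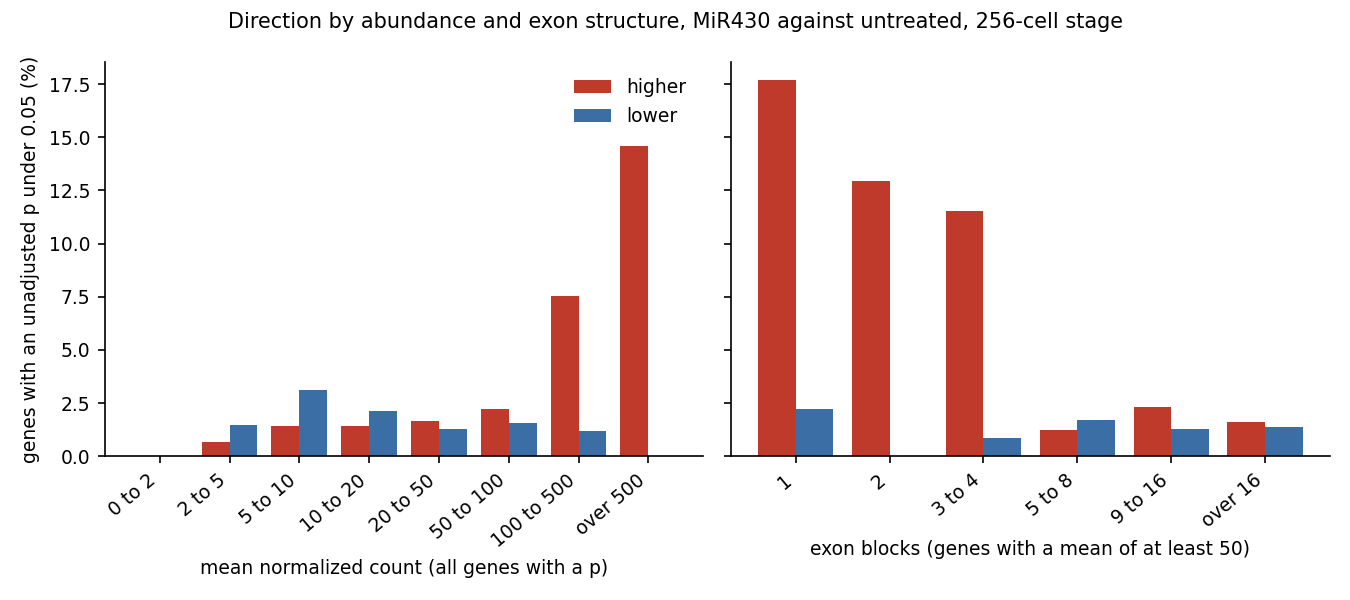
Percent of genes higher (red) or lower (blue) at an unadjusted p under 0.05, MiR430 against untreated at the 256-cell stage, by mean normalized count over all genes with a p (left) and by number of exon blocks over genes with a mean of at least 50 (right). The red bars reach 14.6% above a mean of 500 and 17.7% for genes of 1 exon block. Both panels include the mir-430 copies.

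The same injection at the 1024-cell stage was measured on libraries that share none with the 256-cell comparison. The deposited mean count was the same in both tables, so both comparisons may also share an estimate of spread. Of the 248 genes higher at an unadjusted p under 0.05 at the 256-cell stage, 210 (84.7%) also had a positive z at the 1024-cell stage, and 87 of them reached that p. Of the 243 lower genes 146 (60.1%) had a negative z later, and 27 reached that p, where 1.65% of all genes were lower at the later stage and 6.01% higher. Among genes with an unadjusted p of 0.05 or more, 58.2% of positive and 52.6% of negative genes kept their sign. With a mean of at least 50 the shares were 101 of 104 higher genes (97.1%) and 22 of 33 lower genes (66.7%). Among genes of that mean with an unadjusted p of 0.05 or more at the 256-cell stage, they were 65.3% and 57.6%. That mean covers all groups, the 1024-cell libraries among them, so the filter depends in part on the later values.

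The 87 of 16996 genes higher at both stages included 16 of 54 mir-430 copies, 7 of 35 early zygotic genes, 4 of 22 immediate early genes and 4 of 56 histone genes. At the 1024-cell stage alone, 66.7%, 45.7%, 36.4% and 55.4% of these lists were higher at an unadjusted p under 0.05, beside 6.01% of all genes. The mir-430 copies are not independent measurements. Chosen by the smaller of their z after the values were seen, the 87 genes included a dre-mir-430a-2 copy, ier5 (3.41 and 3.23), si:dkey-228b2.6 (3.47 and 3.22) and marcksl1b (3.05 and 3.12). The matricellular gene ccn1 (3.00 and 3.30) and krit1 (2.96 and 4.22), whose product stabilizes endothelial junctions, were among them with means of 29.1 and 17.1. The 27 genes lower at both stages included alg14 (-3.35 and -3.84), brf2, cdca7a (-2.56 and -3.61), whose product supports DNA methylation, and calm3b (-3.27 and -2.18).

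Another 21 genes were lower at the 256-cell stage and higher at the 1024-cell stage at an unadjusted p under 0.05, against 1 with the opposite order. At the 1024-cell stage 6.01% of all genes were higher at that p and 1.65% lower, so these counts start from unequal shares. Beside esyt1a, tsc22d3 and aplnrb, the 21 genes included hsd3b2 (-3.09 and 2.81), the nucleoside diphosphate kinase gene nme3 (-2.93 and 3.37) and zfand5a (-2.34 and 3.47). These genes were picked by their values at both stages, so their signs are a description.

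**Figure D5:**
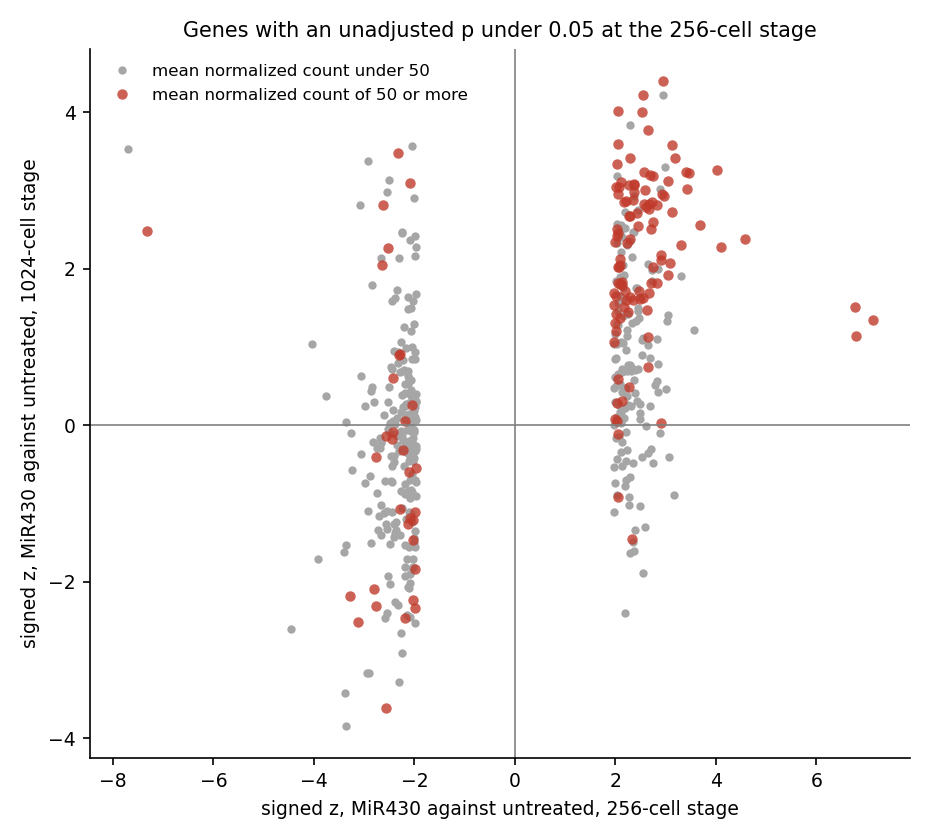
Signed z of MiR430 against untreated at the 256-cell stage (x axis) and the 1024-cell stage (y axis) for genes with an unadjusted p under 0.05 at the 256-cell stage, with red points for a mean normalized count of 50 or more. Of the 104 red points on the right 101 lie above 0, and the 2 points at the far left, esyt1a and tsc22d3, lie above 0 as well.

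Lists that leaned at the 1024-cell stage did not all lean at the 256-cell stage. The median z of signed histone genes was 0.35 here and 2.11 later, that of ribosomal protein genes 0.54 and 1.70, that of cell cycle genes 0.055 and 1.15, and that of splicing factors -0.064 and 1.14. For early zygotic genes the medians were 1.88 over 23 signed members and 1.92 over 33. The 12 members without a sign at the 256-cell stage are left out of the first, so these medians cover different members. Over all signed genes they were -0.022 and 0.17. The difference between stages was not tested for any list. Of the 109 genes that rose under MiR430 at the 1024-cell stage, 9 (8.26%) were higher and 3 (2.75%) lower at an unadjusted p under 0.05 at the 256-cell stage, and 68 of 97 signed genes had a positive z. Of the 690 genes (5.89% of those tested) that rose under CDK9 at the 1024-cell stage, in libraries also not part of this comparison, 67 (9.71%) were higher and 18 (2.61%) lower at that p. Of all genes 1.46% were higher and 1.43% lower, and of genes with a mean of at least 50 these shares were 4.35% and 1.38%. The 109 and the 690 genes had median mean counts of 41.0 and 46.4, above the 9.95 of all genes.

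Embryos injected with cdk9 mRNA at the 256-cell stage were compared with the same 3 untreated libraries, so the values below share their controls and stand side by side only. For akap12b the z was 6.77 under MiR430 and 9.02 under CDK9, for znf1092 6.78 and 8.04, for CU182823.1 7.12 and 8.86, and for fgf20a 4.59 and 5.55. For esyt1a it was -7.71 and 2.62, for tsc22d3 -7.32 and 3.07, and for brf2 -4.45 and -3.42. For irx7 it was 3.68 and 7.01, for klf17 2.44 and 6.34, for ndr1 2.37 and 6.32 and for aplnrb -2.53 and 3.21. For cdk9 it was 1.45 and 16.7. Of the 54 mir-430 copies 19 were higher at an unadjusted p under 0.05 under MiR430 and 44 under CDK9, beside 1.46% and 7.98% of all genes. All told, 494 of 9124 genes (5.41%) passed the adjusted threshold under CDK9 and 7 of 12373 (0.0566%) under MiR430.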

How the data were processed

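The submitters' processing notes name HISAT, featureCounts, DESeq2, Picard, SAMtools and Trimmomatic, without versions, and the build GRCz11. Libraries were stranded and made without polyA selection, per the labels' protocols. The authors deposited 4 comparison tables with a mean normalized count (a signal averaged over libraries), log2 fold changes, their standard errors, p-values and adjusted p-values. Where present, the authors' adjusted p matched one recomputed by the Benjamini-Hochberg method. In the table of counts the 18 count columns match no sample label, so none was used. Only its symbols, coordinates and exon length (deposited by the authors, in bases) entered, and 504 of 510 missing symbols came from a reference table.

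The planned count test (edgeR) needs mapped libraries and was not run. Genes were called at a deposited adjusted p under 0.05, a wider rule than the authors' own call column, and z statistics were computed from the deposited p-values and signs in Python 3.11.15 (numpy 2.4.6, pandas 2.3.3, scipy 1.17.1) and tested on simulated data. The 24 lists and the members were chosen with earlier results of these data known. Lists get no test of their own. List medians leave out genes with a p of 1. Genes named were cdk9, the mir-430 genes, called genes, the 10 smallest p per direction with a mean of at least 10, up to 4 members per list by p, and the 10 most abundant nuclear genes. Others named to show a list's range or a pattern were chosen after their values were seen. The alternatives were other thresholds, filters and a recentred z.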

Additional observations from a re-analysis of the deposited data

How the results depend on the processing

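The calls were few under each setting tried. At an adjusted p under 0.1, 6 genes had risen and 5 fallen. Among genes whose mean count reached 50 the numbers were 6 and 1, and at an adjusted p under 0.01 brf2 lost its call (adjusted p = 0.015). Restricting to a mean of at least 50 moved the share of positive z to 54.1%, the share higher at an unadjusted p under 0.05 to 4.35% and the same-sign shares at the later stage to 67.9% of positive and 57.9% of negative genes, against 59.1% and 52.9% of all genes. Restricting to genes with an adjusted p gave 50.4% positive, 2.00% higher and 1.92% lower. Among genes at an unadjusted p under 0.05 the same-sign shares were 84.7% and 60.1%. With that mean, list counts at an unadjusted p under 0.05 became 0 for lower histone genes, 0 for higher maternal genes, 0 for higher ribosomal protein genes, and 3 higher and 0 lower for chromosome 4 zinc finger genes, where recentring left 1 lower. Fewer genes enter those counts by construction. The other 44 recomputed counts and shares stayed within 1.5 times or the counting interval. No paired analysis was possible because the count columns carry no sample label and the deposited tables hold no value per library. Leaving out a replicate, other scalings and the count tests were not run for the same reason. Depth per library is not used here, and low counts limit most genes.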
